A study of Mus musculus with 7 samples.

Results

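Chromatin accessibility at 44 genes of the integrated stress response and the unfolded protein response was examined in mouse regulatory T (Treg) cells with and without Opa1. The genes were chosen as members of these pathways, and each ATAC-seq peak was given to the gene it overlapped, or else to the nearest protein-coding gene within 100 kb. Of 21900 protein-coding genes, the 44 include 9 sensors, eIF2alpha and phosphatase subunits, 8 transcription factors, 6 feedback and stress targets, 8 enzymes of amino acid and one-carbon synthesis, 8 transport genes and 5 chaperones or proteases. Their peaks numbered 136 of 50213 and fell on 40 of the 44 genes. ATAC-seq uses a transposase that cuts and tags open DNA, so the count at a peak reports how accessible that DNA was. The cells were sorted from the spleen of mixed bone marrow chimeras, mice whose blood system was rebuilt with equal parts of CD45.1+ marrow and CD45.2+ test marrow. In the WT group (4 libraries) the test marrow was Foxp3Cre, and in the Opa1 KO group (3 libraries) it was Foxp3CreOpa1fl/fl. Cells of both groups were gated as CD45.2+, CD45.1-, CD4+ and positive for the Foxp3-YFP reporter. Both groups therefore carry Cre in cells that express Foxp3, and in both the sorted cells developed beside CD45.1+ cells. The sources used here do not give the age of the mice or the host strain. Opa1 is a GTPase of the inner mitochondrial membrane, and its deletion is driven by Cre in Foxp3-expressing cells.

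In the integrated stress response, the kinases Eif2ak1 to Eif2ak4 sense heme or mitochondrial stress, double-stranded RNA, misfolded protein in the endoplasmic reticulum and amino acid shortage, respectively. Each phosphorylates eIF2alpha (Eif2s1), which lowers general translation while Atf4 mRNA is translated more. ATF4, often as a dimer with a C/EBP protein, then activates genes for amino acid uptake and synthesis. In the unfolded protein response, Eif2ak3 (PERK) acts beside Ern1 (IRE1), which splices Xbp1 mRNA, and Atf6, which is cleaved and raises chaperones such as Hspa5 (BiP). Mitochondrial stress reaches eIF2alpha through the protease Oma1 and its substrate Dele1, which binds the kinase Eif2ak1. Oma1 also cleaves Opa1 itself.

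The promoter sequences of the genes bear on these peaks, since 33 members had a peak over their RefSeq start (GRCm38.p6, the mm10 build). RefSeq promoters, from 250 bases before to 50 after the start, were matched for 39 of the 44 members. Both strands were searched for the ATF4-C/EBP element TGATGNAA, the cyclic AMP type element TGACGTCA, the unfolded protein response element TGACGTGG and the endoplasmic reticulum stress element (CCAAT, 9 bases, CCACG). The first occurred in the promoters of 9 members, 23.1% of those matched, against 4.13% of 17492 genes. Asns, Chac1 and Trib3 among them are textbook ATF4 targets. Because such targets were among the genes chosen, the higher share may come from that choice and tests nothing. Each match is given here on the strand of the gene with 6 bases to either side and the element in capitals. Slc7a11 has 2 matches. Capitals that read TTGCATCA or TTACATCA are the element on the opposite strand.
Asns: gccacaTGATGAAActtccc
Atf3: tcgcacTTGCATCAccaagt
Chac1: ctgccgTTGCATCActcctg
Nupr1: gccagaTTGCATCAgacagg
Pycr1: tgtgtaTGATGCAAtgcaca
Slc1a4: cctgcgTTGCATCAtctcca
Slc7a11: tgtggcTGATGCAAacctgg
Slc7a11: gagaatTTGCATCAtcatgc
Trib3: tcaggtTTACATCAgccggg
Vldlr: caatagTTGCATCAgcgctc
The Trib3 match lies after the start, at bases 15 to 22, and the Slc1a4 match spans the start. Matches at Asns, Atf3, Chac1, Slc1a4 and Trib3 lay inside a tested peak. The endoplasmic reticulum stress element was found in 1 member, Hspa5, a share of 2.56% against 0.166% of all genes. The cyclic AMP type element was found in 1 member, Ppp1r15a, again 2.56%, against 2.54% of all genes. TGACGTGG occurred in 0 members and in 0.823% of all genes. A match is a string of letters in this window and does not show that a factor was bound there.

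The 250 bases before the start are shown for the 2 members whose start peaks had the smallest p, and for Chac1 and Hspa5, which carry an element in capitals. All 4 lie on the plus strand.
Eif2s1 (chr12:78861822-78862071, plus strand): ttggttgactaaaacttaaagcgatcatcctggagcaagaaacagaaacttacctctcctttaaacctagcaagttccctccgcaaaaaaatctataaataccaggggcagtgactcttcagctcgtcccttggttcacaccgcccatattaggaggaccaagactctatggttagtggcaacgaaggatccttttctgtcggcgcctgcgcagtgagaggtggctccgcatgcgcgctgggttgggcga
Ddit3 (chr10:127290543-127290792, plus strand): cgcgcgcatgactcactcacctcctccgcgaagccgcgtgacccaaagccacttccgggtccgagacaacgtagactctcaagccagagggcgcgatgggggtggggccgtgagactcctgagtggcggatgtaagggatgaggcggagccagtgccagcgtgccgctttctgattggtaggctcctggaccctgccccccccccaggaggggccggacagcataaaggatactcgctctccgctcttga
Chac1 (chr2:119350992-119351241, plus strand): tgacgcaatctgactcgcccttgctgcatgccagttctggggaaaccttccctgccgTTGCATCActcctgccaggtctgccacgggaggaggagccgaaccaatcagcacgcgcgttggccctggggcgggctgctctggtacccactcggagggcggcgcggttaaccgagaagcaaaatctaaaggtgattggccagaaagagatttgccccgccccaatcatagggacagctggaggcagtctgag
Hspa5 (chr2:34771840-34772089, plus strand): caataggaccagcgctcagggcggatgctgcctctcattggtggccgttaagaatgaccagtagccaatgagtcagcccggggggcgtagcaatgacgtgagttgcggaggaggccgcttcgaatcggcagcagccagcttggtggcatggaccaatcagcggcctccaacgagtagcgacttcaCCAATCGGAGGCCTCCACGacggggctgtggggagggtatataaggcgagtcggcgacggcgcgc
Neither the Eif2s1 nor the Ddit3 window held any of the elements searched. The first 67 bases of the Eif2s1 window also lie in the promoter window of Atp6v1d, which encodes a subunit of the vacuolar proton pump and is transcribed the other way. The start of Eif2s1 lies at base 78862072 of chromosome 12 and that of Atp6v1d at base 78861638, 434 bp apart.

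Library totals in peaks ran from 1534394 to 3384325, with Opa1 KO replicate 1 the deepest, and the median count per peak ran from 14 to 30. The counts of WT replicates 2 and 3 agree within sampling noise over 36418 peaks (chi-square p = 0.111), but not over the 11332 most abundant ones (chi-square p = 0.0385). Their mean was counted as 1 sample, so each mean ± SD below has n = 3 in both groups, while the tests used all 7 libraries. The WT SD therefore leaves out the difference between replicates 2 and 3. Where they lie apart, it can be well below the spread of the WT libraries. The Treg marker list (Foxp3, Il2ra, Ctla4, Ikzf2, Ikzf4 and Tnfrsf18) summed to 1610 to 1720 CPM, TMM-scaled counts brought to a common total, in WT and 1670 to 1750 in KO. Of the B cell markers, Ms4a1 and Cd79a had no peak, and of the myeloid markers, Lyz2 and Csf1r had none. Peaks of the other myeloid markers summed to 56.2 to 63 CPM in WT and 43.6 to 54.5 in KO, ranges that did not overlap, and their part in the results below was not tested. Over the Opa1 start, accessibility was 36.8 ± 1.17 CPM (WT) and 35.0 ± 6.93 CPM (KO), which checks no genotype, since the sources do not name the deleted exons. Peaks over gene starts took 37 to 37.8% of counts in WT and 38.1 to 38.5% in KO. Member peaks took 0.356 to 0.375% of counts in WT and 0.38 to 0.383% in KO. Both shares were higher in every KO library, and whether the one accounts for the other was not tested.

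Accessibility at the start differed widely among the stress genes. Per kilobase of peak, the sensor kinase Eif2ak3 stood first with a mean of 533 CPM, above 99.7% of the 7408 tested start peaks of all genes. Ddit4, an mTORC1 inhibitor, followed with 225 CPM per kb. No library of Eif2ak3 fell below 484 and none of Ddit4 rose above 247, so those neighbours in the order were apart. Every later pair of neighbours overlapped between libraries. Hspa5 (208 CPM per kb), Xpot (192), Psph (192) and Eif2ak4 (185) came next, and Eif2s1 stood seventh with 143. The median over start peaks of all genes was 71.4 CPM per kb, close to Trib3 with 71.5. The lowest start peaks were those of Slc3a2 with 36.6 CPM per kb, Atf3 with 34.8, Chac1 with 26.5, Asns with 21.5, Shmt2 with 17.6, Cebpb with 17.2 and Slc7a11 with 14.3. Those of Shmt2 and Slc7a11 were too low to be tested. The Slc3a2 value is for a 210 bp peak at a RefSeq start inside the gene span. Another peak, across the upper-coordinate end of this minus-strand gene and the Snhg1 start, had 71.7 CPM per kb.

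**Figure D1:**
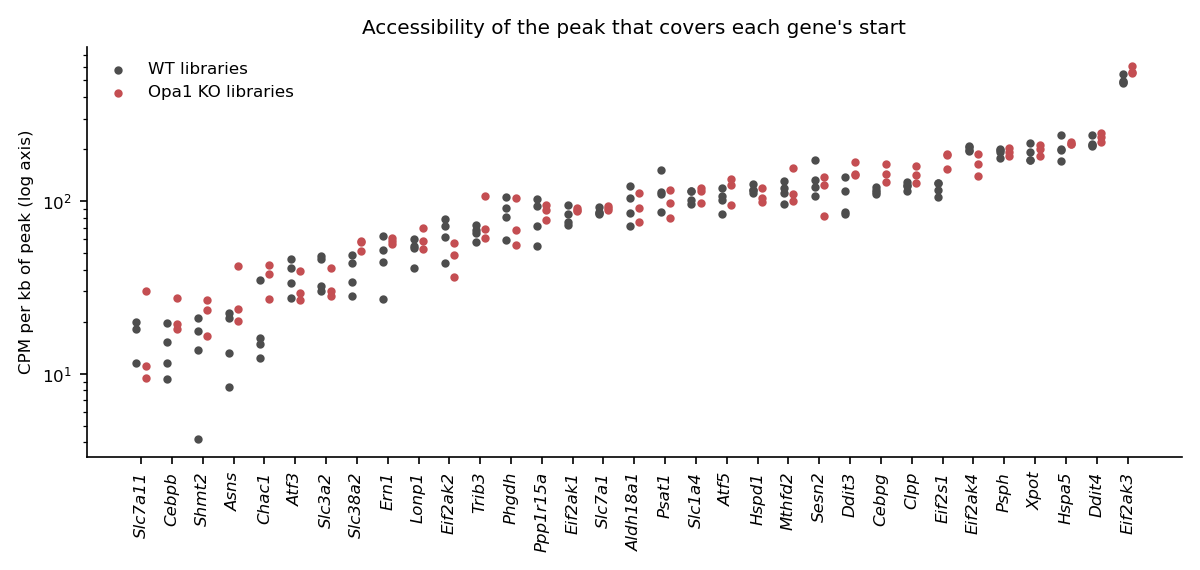
Accessibility of the peak over the start of 33 stress genes, in CPM per kb of peak on a log axis, with 1 point per library (WT grey, Opa1 KO red). Eif2ak3 stands above all others at a mean of 533 and Slc7a11 is lowest at 14.3; 1 WT library of Slc7a11 at 0 CPM is not drawn.

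There were 4 members without any peak. Atf4, the central factor of the response, was 29697 bp from its nearest peak, which belonged to Mief1. For Pycr1, a proline synthesis enzyme, that distance was 15177 bp. It was 175451 bp for Vldlr, a lipoprotein receptor, and 268057 bp for Stc2, a secreted glycoprotein. A gene without a called peak may still have had reads, which the peak counts do not hold. The 3 peaks of Slc7a11, the cystine transporter, had means of 2.69 to 4.95 CPM in each group and were not tested. In all, 116 of the 136 peaks at 39 members passed the filter on low counts. The number of peaks per gene ranged from 1, at 12 members, to 12 at the amino acid transporter genes Slc7a1 and Slc38a2. By position, 34 peaks covered the start of their gene, 49 others overlapped it and 53 lay outside. The RefSeq table gave no start for Atf6, Ppp1r15b, Slc7a5, Slc1a5 and Hspa9, so none of their peaks could count as a start peak, although those named below for Ppp1r15b and Slc7a5 and the stronger one of Slc1a5 run across an end of the gene. Start peaks made up 27.6% of the tested member peaks and 19.5% of all tested peaks.

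Loss of Opa1 was accompanied by a called change at 1 of the 116 tested member peaks, the start peak of Eif2s1, which rose. Over all tested peaks the same rule, an adjusted p under 0.05 in edgeR's quasi-likelihood test with Benjamini-Hochberg adjustment, called 0.0867% (33 of 38041). An unadjusted p under 0.05 was reached by 7 member peaks that were higher in KO, where 4.74% of all tested peaks did so. It was reached by 3 that were lower, against a background of 4.73%. Every KO library was above every WT library at 8 member peaks, against 4.85% of all peaks. The reverse held at 3 member peaks, against 4.51%. The log2 fold change was above 0 at 69 of 116 member peaks (59.5%, against 49.8% of all tested peaks), with a median of 0.06 against -0.001. The member median was 0.01 without WT replicate 1, 0.02 without WT replicate 2 and 0.03 without KO replicate 3. Without Eif2s1, 68 of 115 peaks were above 0. Of the 32 tested member peaks over a start, at 31 genes, 22 were above 0, with a median of 0.10. All 7408 tested start peaks also leaned upward, 58.9% of them above 0 with a median of 0.04. With loess offsets, which remove trends along abundance, the start-peak medians were 0.05 for members and 0.01 for all. On simulated counts the test called 10.4% of peaks changed 1.5-fold and 53.8% of those changed 2-fold (35972 peaks), so many changes of that size at single peaks would not have been called.

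**Figure D2:**
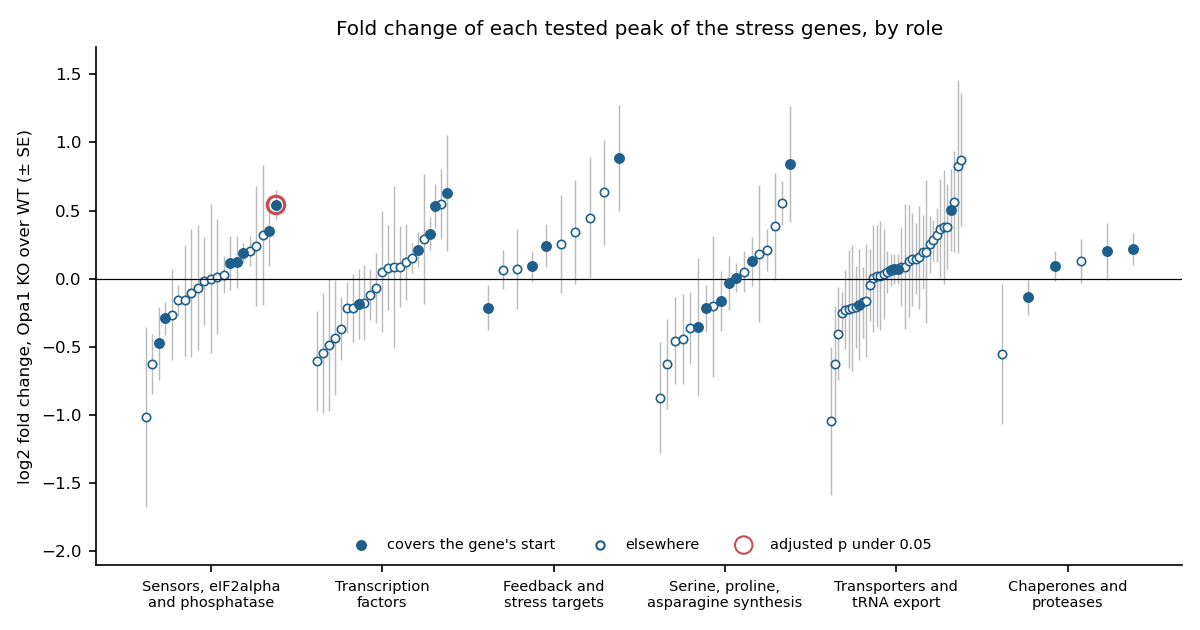
The log2 fold change (Opa1 KO over WT, with its SE) of each of the 116 tested peaks, ordered within 6 roles; filled points cover the start of the gene, and the ring marks an adjusted p under 0.05. The ringed point is the Eif2s1 start peak at 0.54, and the other 115 points run from -1.04 to 0.89.

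Among the sensors, eIF2alpha and the phosphatase subunits, 21 of 31 peaks were tested at all 9 genes, 10 were above 0 and the median log2 fold change was -0.0011. Eif2s1 encodes eIF2alpha, the protein that all 4 kinases phosphorylate. Its only peak (chr12:78861426-78862169, 743 bp) had 94.0, 94.8, 78.3 and 86.4 CPM in WT replicates 1 to 4 and 113, 137 and 139 CPM in KO replicates 1 to 3. The groups did not overlap, and the lowest KO library was the deepest one. The means were 89.0 ± 4.34 CPM in WT and 130 ± 14.2 in KO (SD, n = 3 each), a log2 fold change of 0.54 with SE 0.11 (edgeR adjusted p = 0.0154). By p it ranked 23 among all tested peaks. It covers the starts of both Eif2s1 and Atp6v1d, and the counts do not tell which of the genes the cut sites belong to. In bulk libraries, more cells with a site open and more open DNA per cell cannot be told apart. The call was lost in 6 of 15 alternative settings. Among them were fits without WT replicate 3 (edgeR adjusted p = 0.0968), WT replicate 4 (0.0695), KO replicate 2 (0.073) or KO replicate 3 (0.191). It was also lost with loess offsets (0.0607) and with a block for replicate number in the model, while the fold change stayed between 0.48 and 0.65.

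**Figure D3:**
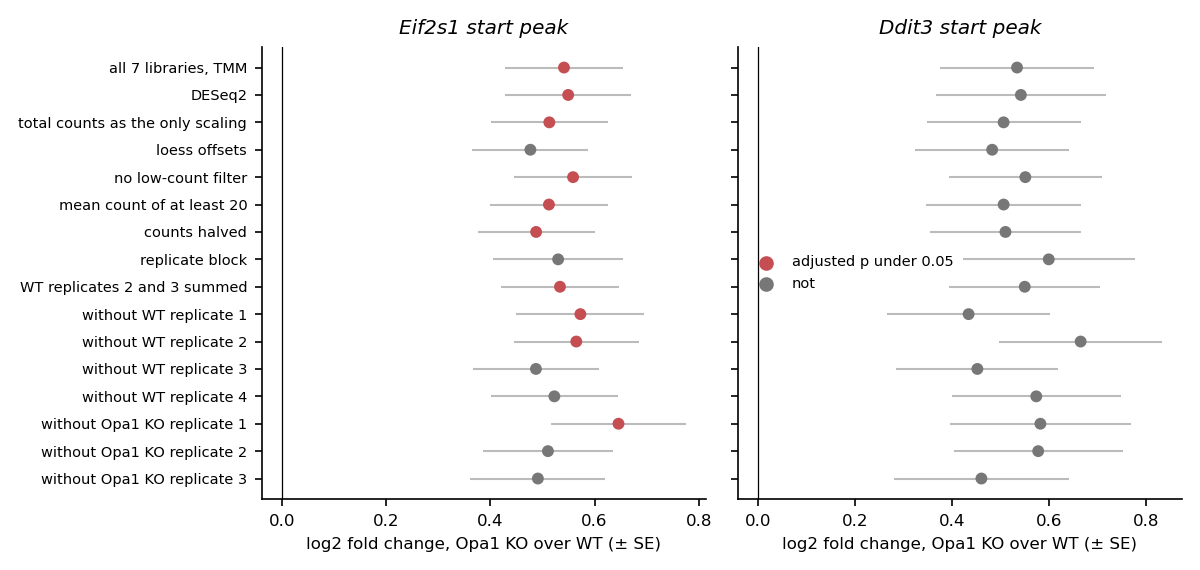
The log2 fold change (Opa1 KO over WT, with its SE) of the Eif2s1 and Ddit3 start peaks with all 7 libraries and under 15 other settings; red marks an adjusted p under 0.05. Both peaks stay above 0 throughout, Eif2s1 is called in 9 of the 15 other settings and Ddit3 in 0.

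The start peaks of the kinases did not share a direction. The start peak of Eif2ak3 (PERK) had 320, 358, 319 and 328 CPM in WT and 369, 401 and 365 CPM in KO. All KO libraries were above all WT libraries, but the step was small, the means being 329 ± 9.26 and 378 ± 19.7 CPM (0.19 on the log2 scale, SE 0.08, adjusted p = 0.387). Of the 5 tested Eif2ak3 peaks, 2 were above 0. Those inside the gene and away from the start leaned lower (-0.16, -0.26 and -1.02), and the summed counts gave 0.08 (SE 0.06). The start peak of Eif2ak4 (GCN2), the amino acid sensor, had 98.8, 93.4, 100 and 94.8 CPM in WT and 89.7, 78.4 and 66.9 CPM in KO. There all KO libraries were below all WT libraries, at a log2 fold change of -0.29 with SE 0.12 (adjusted p = 0.428). Eif2ak1 (HRI), the kinase that the mitochondrial relay reaches, had 31.6 ± 3.8 CPM in WT and 33.4 ± 0.734 in KO at its only peak (log2 fold change 0.11, SE 0.20). The start peak of Eif2ak2 (PKR), the sensor of double-stranded RNA, had 24.2, 14.9, 26.5 and 21.1 CPM in WT. In KO it had 12.3, 16.4 and 19.4 CPM. The means were 22 ± 1.94 and 16.1 ± 3.56 CPM (-0.47, SE 0.27), and the WT SD hides the low replicate 2. Neither passed the threshold, and the groups overlapped at both.

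A peak inside Atf6 (chr1:170729294-170729825) had 39.2, 29.8, 31.3 and 28.5 CPM in WT and 22.8, 18.3 and 21.0 CPM in KO. The groups did not overlap there, and the log2 fold change was -0.62 with SE 0.22 (adjusted p = 0.317). It was the most accessible of 9 peaks at Atf6, of which 5 were tested. At Ern1 (IRE1) the start peak was at 19.0 ± 7.39 CPM in WT and at 24.4 ± 0.983 in KO (0.35, SE 0.25). Ppp1r15a (GADD34) and Ppp1r15b (CReP) bring a phosphatase to eIF2alpha and so end the response. The Ppp1r15a start peak, shared with Plekha4, had 37.9 ± 11.2 and 41.4 ± 4.38 CPM, and a peak across the lower-coordinate end of Ppp1r15b had 109 ± 11.9 and 126 ± 14.7. No peak of these 3 genes passed the threshold.

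**Figure D4:**
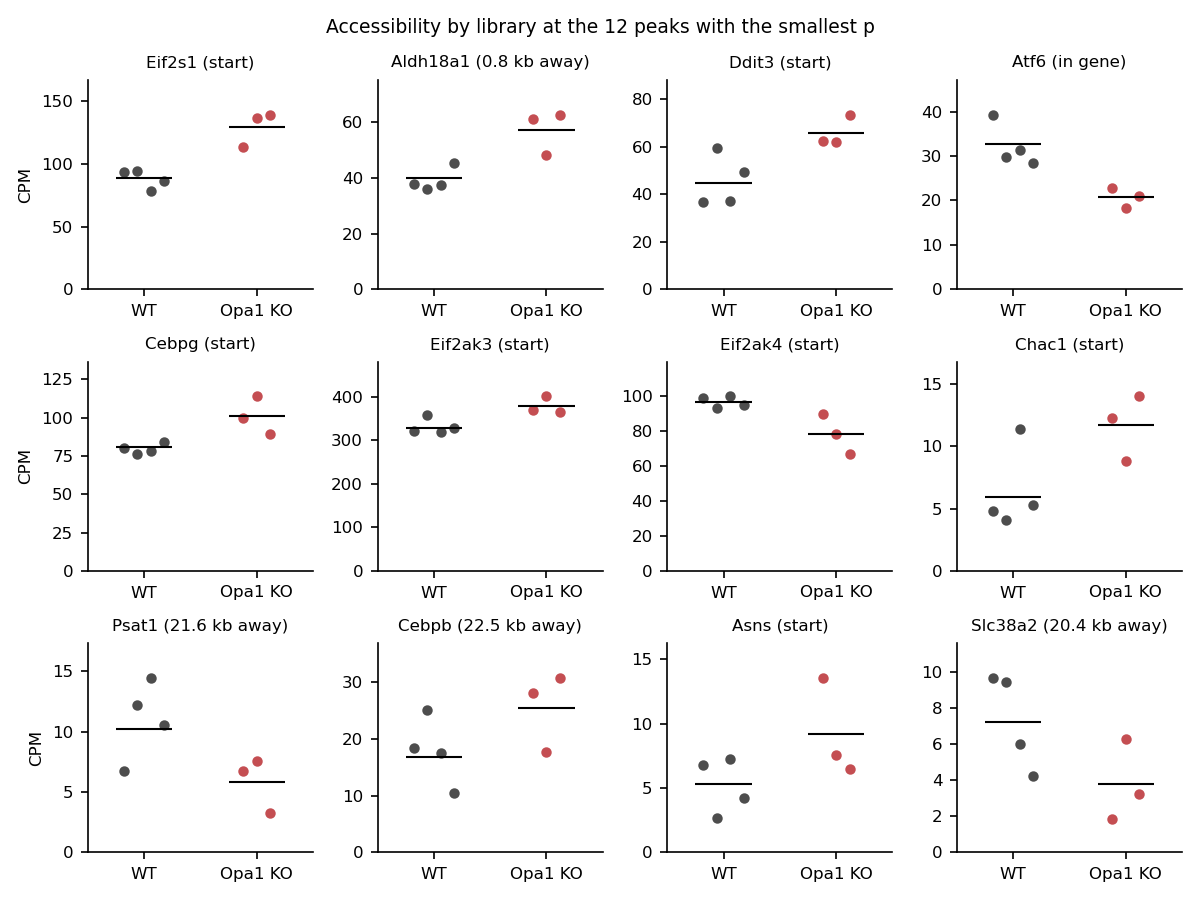
CPM by library (WT grey, Opa1 KO red, lines at the group means with WT replicates 2 and 3 averaged) at the 12 member peaks with the smallest p, at most 1 per gene. The KO points lie above all WT points at Eif2s1, Aldh18a1, Ddit3, Cebpg and Eif2ak3 and below them at Atf6 and Eif2ak4; the other 5 panels overlap.

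For the transcription factors, 23 of 25 peaks at 7 of the 8 genes were tested, 12 were above 0 and none was called. An unadjusted p under 0.05 was reached by 3 of the 23, all higher in KO, where 4.74% of all tested peaks did so. Ddit3 encodes CHOP, a C/EBP-like factor induced by ATF4 and linked to cell death under lasting stress. Its single peak (chr10:127290409-127290844), which also overlaps Mbd6, had 36.8, 59.6, 37.3 and 49.5 CPM in WT and 62.5, 61.9 and 73.3 CPM in KO. WT replicates 1 and 3 were low, WT replicate 2 came close to the KO libraries, and the groups did not overlap. The means were 44.9 ± 7.05 and 65.9 ± 6.42 CPM (SD, n = 3 each), a log2 fold change of 0.53 with SE 0.16, as large as at Eif2s1 but with a wider error (adjusted p = 0.218). Cebpg, a partner of ATF4 in dimers, had 80.4, 76.5, 78.3 and 84.3 CPM in WT and 99.5, 114 and 89.5 CPM in KO at its start. Those groups did not overlap either, at a log2 fold change of 0.33 with SE 0.12 (adjusted p = 0.34).

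The peaks of the remaining factors had larger p-values, though some fold changes were as large. Atf5, a factor tied to the mitochondrial stress response, had 81.1 ± 11.6 CPM in WT and 95.0 ± 16.5 in KO at a peak that also covers the starts of Il4i1b and Nup62 (0.21, SE 0.13). Atf3, an early stress factor, was most accessible 10282 bp from the gene, with 123 ± 12.1 and 135 ± 21.3 CPM (0.15, SE 0.11). At the Atf3 start itself the values were 20.4 ± 4.23 and 17.9 ± 3.76 CPM. Cebpb had 10 peaks, and the one with the smallest p lay 22486 bp from the gene with 16.7 ± 5.55 and 25.5 ± 6.89 CPM (0.55, SE 0.26, adjusted p = 0.492). Its 9 tested peaks ran from -0.60 to 0.63 on the log2 scale. The strongest peak of Xbp1, inside the gene, had 39.6 ± 5.88 and 35.3 ± 8.09 CPM (-0.12, SE 0.19). Nupr1, a small stress-induced chromatin protein, had a peak 5.67 kb from its start with 8.09 ± 0.98 and 5.45 ± 1.96 CPM (-0.54, SE 0.44). The groups did not overlap at this weak peak, with 7.23 to 9.2 CPM in WT and 3.24 to 6.95 in KO (adjusted p = 0.755).

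Of the feedback and stress targets, 4 of 6 genes had peaks, and 9 of the 10 tested peaks leaned upward. Their median was 0.25 on the log2 scale, and 49.8% of all tested peaks were above 0. Of the 9, 5 lie at Ddit4 and 2 at Trib3, so they do not stand for 9 separate genes. None was called, and 1 reached an unadjusted p under 0.05, higher in KO, against 4.74% of all tested peaks. That one was Chac1, which encodes an enzyme that degrades glutathione and is a sensitive ATF4 target. Its start peak had 4.84, 4.06, 11.4 and 5.27 CPM in WT and 12.3, 8.85 and 14.0 CPM in KO. WT replicate 3 lay among the KO libraries, and the low counts left a wide error (log2 fold change 0.89, SE 0.39, adjusted p = 0.453). Trib3, a pseudokinase that feeds back on ATF4 and CHOP, had 48.9, 61.6, 57.2 and 54.8 CPM in WT and 51.1, 58.1 and 90.1 CPM in KO. Only KO replicate 3 was high, and the log2 fold change of 0.24 became -0.03 without it. Ddit4 had 93.8 ± 7.33 and 99.3 ± 5.62 CPM at its start. Sesn2, which links leucine to mTORC1, had 56.9 ± 14.2 and 48.2 ± 12.3, the one tested peak of these genes with a log2 fold change below 0 (-0.21, SE 0.17).

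Enzymes of serine, one-carbon, proline and asparagine synthesis had 18 tested peaks at 7 of 8 genes, of which 8 were above 0. None was called, and an unadjusted p under 0.05 was reached by 1 that was higher and 1 that was lower in KO. Over all tested peaks, 4.74% and 4.73% did so. Aldh18a1 makes the proline precursor pyrroline-5-carboxylate. A peak 842 bp outside it (chr19:40589305-40589839) had 37.8, 35.9, 37.3 and 45.3 CPM in WT and 61.0, 48.0 and 62.6 CPM in KO. The groups did not overlap, with means of 39.9 ± 4.72 and 57.2 ± 7.98 CPM (0.56 on the log2 scale, SE 0.16, adjusted p = 0.212). The neighbouring peak over the Aldh18a1 start gave no such step, with 35.7 ± 7.41 and 33.5 ± 6.3 CPM (-0.03, SE 0.20). Asns, asparagine synthetase, had 6.78, 2.71, 7.23 and 4.22 CPM in WT and 13.6, 7.58 and 6.47 CPM in KO at its start. KO replicate 1 was high, KO replicate 2 lay just above the highest WT library and KO replicate 3 lay within the WT range (0.84, SE 0.43, adjusted p = 0.535).

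The serine pathway starts with Phgdh, followed by Psat1 and Psph. Phgdh had its most accessible peak 8097 bp outside the gene, with 56.9 ± 4.43 CPM in WT and 58.8 ± 0.916 in KO (0.05, SE 0.15). The main peak over the Psat1 start had 49.3 ± 9.82 and 43.9 ± 8.16 CPM (-0.21, SE 0.17). A weaker Psat1 peak 21625 bp away had 10.2 ± 3.28 and 5.87 ± 2.31 (-0.87, SE 0.41, adjusted p = 0.488). Psph, whose start peak is shared with Cct6a, had 117 ± 6.4 and 119 ± 6.01 CPM (0.01, SE 0.11), among the most even of the members. In mitochondrial one-carbon metabolism, the start peak of Mthfd2 had 39.2 ± 1.4 and 41.6 ± 10 CPM, with WT libraries from 33.1 to 44.7. A stronger peak covers the Mob1a start and the upper-coordinate end of Mthfd2, a minus-strand gene, and had 53.4 ± 8.7 and 59.7 ± 6.45. Shmt2 had 1 tested peak, inside the gene, with 5.04 ± 1.31 and 6.05 ± 1.32 CPM (0.18, SE 0.50).

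Transporters and the tRNA exporter Xpot held the most peaks, 43 with 38 tested at 7 of 8 genes. Of these 26 were above 0 (68.4%, against 49.8% of all tested peaks). None reached an unadjusted p under 0.05, and the median log2 fold change was 0.07. Slc7a1, the cationic amino acid transporter, had 12 tested peaks, 7 above 0, between -0.62 and 0.87. Its start peak was level, with 103 ± 4.94 CPM in WT and 107 ± 3.11 in KO (0.07, SE 0.11). A peak deep inside Slc7a1, 50.2 kb from the start, had 58.5 ± 2.6 and 48.6 ± 9.59 CPM (-0.25, SE 0.16). Slc38a2, a transporter of small neutral amino acids, had 10 tested peaks, 6 above 0. Its start peak had 14.5, 10.2, 8.43 and 13.2 CPM in WT and 15.4, 17.7 and 17.3 CPM in KO, groups that did not overlap (0.51, SE 0.30, adjusted p = 0.621). A weak Slc38a2 peak 20363 bp outside the gene went the other way, with 7.22 ± 2.78 and 3.8 ± 2.29 CPM (-1.04, SE 0.54, adjusted p = 0.546).

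**Figure D5:**
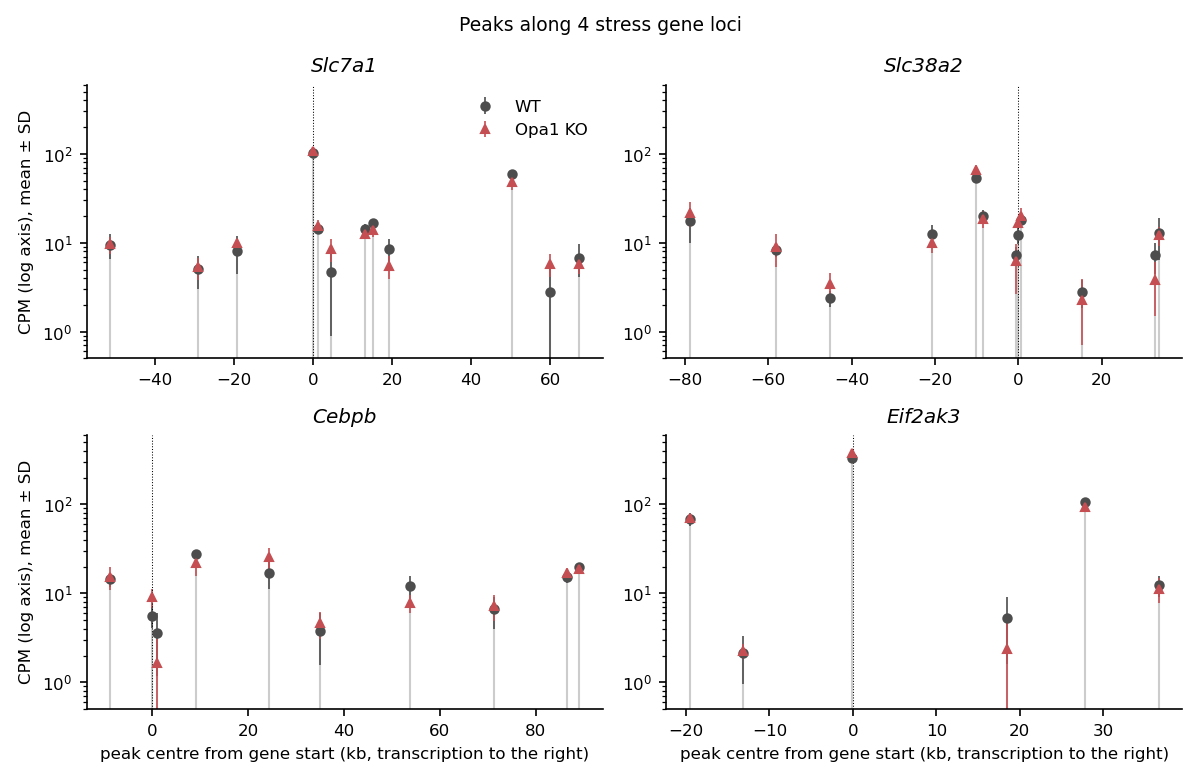
Peaks at Slc7a1, Slc38a2, Cebpb and Eif2ak3 by the distance of their centre from the gene start (kb, transcription to the right), with mean CPM ± SD (n = 3 each) on a log axis for WT (grey circles) and Opa1 KO (red triangles); lower error bars that reach the foot of the axis are clipped there. The groups lie on each other at most peaks, and the start peak is the highest at Slc7a1 and Eif2ak3 but not at Slc38a2 or Cebpb.

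Slc7a5 and Slc3a2 form the large neutral amino acid transporter of activated T cells. The strongest Slc7a5 peak, which covers the start of BC048644, had 57.8 ± 6.75 CPM in WT and 59.3 ± 13.4 in KO (0.05, SE 0.15). The strongest Slc3a2 peak, across the upper-coordinate end of the gene and over the Snhg1 start, had 30.4 ± 7.31 and 39.9 ± 6.72 (0.32, SE 0.20). The glutamine transporter Slc1a5 had 29.7 ± 7.25 and 34.7 ± 8.05 CPM at the stronger of its peaks (0.25, SE 0.21). The start peak of Slc1a4, which carries the ATF4-C/EBP element across its start, had 93.7 ± 8.68 and 99.5 ± 10.4 CPM (0.06, SE 0.12). The start peak of Xpot had 111 ± 7.36 and 118 ± 8.81 (0.07, SE 0.11). The groups overlapped at each of these peaks. At weaker peaks inside Slc7a5 and Slc1a5 they did not overlap: Slc7a5 had 8.08 ± 2.31 and 11.5 ± 0.837 CPM (0.57, SE 0.37, adjusted p = 0.668) and Slc1a5 had 11.8 ± 1.24 and 15 ± 0.85 CPM (0.38, SE 0.31, adjusted p = 0.756). With the Slc38a2 start, these were the 3 of 38 tested transport gene peaks with every KO library above every WT library. Over all tested peaks, 4.85% were placed so.

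The 5 chaperones and proteases had 6 peaks, all tested, of which 4 were above 0 and none reached an unadjusted p under 0.05. Hspa5, the main chaperone of the endoplasmic reticulum, had 92.5, 107, 130 and 109 CPM in WT and 115, 119 and 115 CPM in KO at its start. The KO libraries lay within the WT range, and the log2 fold change was 0.09 with SE 0.11 (adjusted p = 0.857). Hspd1 (mitochondrial HSP60) shares its start peak with Hspe1 (HSP10), and that peak had 82.2 ± 4.37 and 74.6 ± 7.22 CPM (-0.14, SE 0.13). The stronger Hspa9 (mortalin) peak, outside the gene, had 45.0 ± 3.87 and 50.3 ± 3.57 (0.13, SE 0.16). The matrix proteases Lonp1 and Clpp had 28.1 ± 1.2 and 31.9 ± 4.48 CPM, and 86.8 ± 5.46 and 102 ± 11.2 CPM, at their start peaks (0.20, SE 0.21, and 0.22, SE 0.12). The WT libraries of Lonp1 ran from 21.7 to 31.8 CPM.

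Summing the peaks of each gene gave 1 value per member with more counts behind it. All 40 members with a peak were tested, and 27 were above 0, where 49.9% of all genes were. The median log2 fold change was 0.09 against -0.0005 over 13288 genes. Eif2s1 was again the 1 member called, where 0.346% of all genes were. Its sum rose by 0.53 on the log2 scale, with SE 0.12 and an edgeR adjusted p of 0.0069. The WT mean was 82.6 ± 4.33 CPM and the KO mean 120 ± 13.2. Among all genes it ranked 13 by p, and the call was lost without WT replicate 3 (0.0529) or KO replicate 3 (0.148). An unadjusted p under 0.05 was reached by 6 members that were higher in KO (Eif2s1, Ddit3, Cebpg, Aldh18a1, Chac1 and Trib3), against 5.37% of all genes, and by 3 that were lower (Eif2ak4, Psat1 and Atf6), against 6.02%. Ddit3 had 41.7 ± 6.39 and 60.9 ± 5.69 CPM (0.53, SE 0.16, adjusted p = 0.114), and passed the threshold when WT replicate 2 was left out (log2 fold change 0.66, adjusted p = 0.0347). At Trib3 only KO replicate 3, with 94.7 CPM, lay above the highest WT library, at 64.9 CPM. At Chac1, which has 1 peak, WT replicate 3 (10.7 CPM) lay among the KO libraries. Since most members have 1 or few peaks, these sums rest largely on the same counts as the peaks.

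Other genes of the same pathways gave no call in 3 further lists. Among 21 chaperones and degradation factors of the endoplasmic reticulum, 50 peaks were tested and 28 were above 0. An unadjusted p under 0.05 was reached by 5 higher and 2 lower, where 4.74% and 4.73% of all tested peaks did so. Creld2, an ATF6 target, had 11.1 ± 4.05 CPM in WT and 18.7 ± 1.37 in KO (0.80, SE 0.30, adjusted p = 0.362). Pdia3, a disulfide isomerase, had 18.8 ± 1.27 and 11 ± 2.13 (-0.78, SE 0.30, adjusted p = 0.365). Among 24 aminoacyl-tRNA synthetases and translation targets, 45 peaks were tested and 24 were above 0. Of the 45, 2 reached an unadjusted p under 0.05, both higher, against 4.74% of all tested peaks. The larger was at the alanyl-tRNA synthetase gene Aars, with 43.0 ± 1.14 and 58.7 ± 4.67 CPM (0.44, SE 0.16, adjusted p = 0.327). In the mitochondrial relay and quality control list, 13 of 15 genes had peaks, 18 peaks were tested, 9 were above 0 and none reached an unadjusted p under 0.05. The strongest peak of the protease Oma1 had 99.9 ± 15.2 and 101 ± 8.72 CPM (-0.01, SE 0.12), and that of Yme1l1, which also cleaves Opa1, had 183 ± 16.2 and 182 ± 8.62 (0.01, SE 0.09). Dele1 had 55.5 ± 3.98 and 50.4 ± 9.07 CPM (-0.13, SE 0.16).

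Start peaks with and without the ATF4-C/EBP element were also set side by side across the genome. The 150 tested start peaks whose promoter holds TGATGNAA had a median log2 fold change of 0.02, and the 7258 without it 0.04. Members with a match inside a tested start peak ran from -0.18 at Atf3 through 0.06 at Slc1a4 and 0.24 at Trib3 to 0.84 at Asns and 0.89 at Chac1.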

How the data were processed

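The authors' deposited table gives whole-number counts of reads per peak for 7 libraries. The build mm10 and the tools BWA 0.7.16, MACS2 2.1.1, Trimmomatic 0.36, SAMtools 1.9, bedtools 2.25.0 and Picard 2.9.4 are named in the submitters' processing notes, without roles or order. Most counts were even (78 to 86.3% per library), and the counts halved were tried as an alternative. Totals ran from 1534394 to 3384325, which limits the precision at weak peaks. Peaks were assigned to every protein-coding gene overlapped, or else to the nearest gene end within 100 kb, with RefSeq GRCm38.p6 gene spans, which hold no exons. Promoters and starts came from the RefSeq table of the same build.

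Peaks and gene sums were tested with edgeR 4.0.16 (R 4.3.3, limma 3.58.1): filterByExpr (minimum count 10, minimum total 15), TMM, robust quasi-likelihood fits on genotype, and Benjamini-Hochberg adjustment over all tested features at 0.05. CPM values use TMM-scaled totals. Tables and figures used Python 3.11.15, pandas 2.3.3, NumPy 2.4.6, SciPy 1.17.1 and matplotlib 3.10.9. Alternatives were DESeq2 1.42.0, total-count scaling, loess offsets, no filter, a mean count of at least 20, halved counts, a replicate block, WT replicates 2 and 3 summed, assignment within 10 kb, and each library left out. The gene step was tested on simulated counts: 53.7% of genes changed 1.5-fold were called over 13137 genes, with 13 false among 168 calls. P-values treat the 7 libraries as separate samples. The series' design text gives 4 and 3 mice, but whether WT replicates 2 and 3 are separate is not settled.

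Named were member peaks past the threshold, the 12 with the smallest p (1 per gene), the strongest tested peak of 20 preset genes (Atf4 had none), and, for sums, called members and the 6 with the smallest p. Other member peaks printed, chosen after their values were seen, describe the remaining genes. Members, lists and rules were chosen with earlier results of these data known. The search for promoter motifs is a description without a test.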

Additional observations from a re-analysis of the deposited data

Results flagged for a closer look

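At the Chac1 start peak, WT replicate 3 stood apart from the other WT libraries with 11.4 CPM against 4.06 to 5.27. Its gap to the nearest of them was 0.836 of the group's whole range, above Dixon's 95% critical value for 4 libraries. It was the 1 such case among the 28 named peaks, and chance flags about 1 in 20 groups. Because WT replicates 2 and 3 were averaged in the means, the WT mean of 5.96 ± 1.57 CPM hides this library.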

How the results depend on the processing

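Over all peaks, 33 were called, and 57 with DESeq2, 60 with a minimum mean count of 20, 82 with halved counts, 13 with the replicate block and 15 to 43 with each library left out (15 without KO replicate 1, 16 without KO replicate 3, 18 without WT replicate 1). Of genes by summed counts, 46 were called, and 16 with DESeq2, 80 with halved counts, 23 with the replicate block and 8 to 67 with each library left out (8 without KO replicate 3, 12 without KO replicate 1, 27 without WT replicate 1 or 4, 28 without WT replicate 3). The count of called member peaks, 1, became 0 with loess offsets and 0 with the replicate block (adjusted p of Eif2s1 0.123), and 0 to 1 with each library left out. Member peaks with an unadjusted p under 0.05 numbered 10, and 9 to 16 with each library left out, the most without KO replicate 1. The called member genes, 1, became 0 to 2. The median log2 fold change of member peaks ran from 0.0118 (without WT replicate 1) to 0.0719 in those fits, at 0.0214 when WT replicate 2 and at 0.0262 when KO replicate 3 was left out. The cause of these moves was not tested, beyond the smaller samples and fewer peaks that some fits hold.

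Directions turned at 4 named peaks near 0. With loess offsets Phgdh gave -0.0019 and Slc7a5 -0.0010, and with halved counts Slc7a5 gave -0.010. With each library left out, Trib3 ran from -0.026 (without KO replicate 3) to 0.43, Phgdh from -0.014 (without WT replicate 2) to 0.10, Slc7a5 from -0.11 (without KO replicate 2, and -0.0025 without WT replicate 2) to 0.16, and Xbp1 from -0.29 to 0.0028 (without KO replicate 2). Same-numbered libraries did not deviate together (correlations -0.0322 to 0.0036, against -0.0516 to 0.0563 for differently numbered ones). Libraries of a group differ by little more than sampling noise, so these correlations cannot decide whether the numbers pair the samples. Scaling by total counts moved the median of all peaks to -0.0286, and 14 higher against 23 lower were called, as against 18 and 15. With loess offsets the split was 12 and 23. Depth left the start peaks of Shmt2 and Slc7a11 untested.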
